A study of Homo sapiens with 8 samples.

Results

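The effect of estradiol (E2) alone was taken from 2 libraries of Ishikawa cells treated with 10 nM E2 and 2 libraries treated with the vehicle dimethyl sulfoxide (DMSO), 4 of the 8 RNA-seq libraries of the series. Ishikawa is an established human endometrial adenocarcinoma line, and a single line stands for the tissue here. The remaining libraries came from cells given 100 nM dexamethasone (Dex) together with 10 nM E2 (2 libraries) or 100 nM Dex alone (2 libraries). All 4 groups were kept in medium without phenol red and with charcoal/dextran-treated serum, which lowers the supply of steroids. The label of each library gives 8 hr of treatment, whereas the treatment protocol shared by the libraries gives 1 hr, and the exposure was not settled from the sources used here.

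Estradiol enters the cell and binds the estrogen receptors, ligand-activated transcription factors encoded by ESR1 and ESR2, which then bind estrogen response elements or are tethered to other factors, often far from the genes they act on. In the endometrium estrogen drives growth of the epithelium and induces the progesterone receptor. A few targets, such as PGR, GREB1 and the alkaline phosphatase genes, are measured routinely. The genes outside a list of such best known targets are the subject of most of what follows, grouped by what their products do.

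The 4 libraries held between 17846211 and 22431871 counted reads, and 14201 of the 26364 genes in the table had enough counts to be tested. Levels are given as CPM, the usual count scaled to a common library size after TMM normalisation, with the E2 libraries in the order replicate 1 and replicate 2, and likewise the DMSO libraries. A gene was called when its adjusted p was under 0.05 (edgeR quasi-likelihood test over all 8 libraries, Benjamini-Hochberg over all genes tested); fold changes are log2, E2 over DMSO, ± SE. ESR1 was 125 and 121 CPM in E2 libraries and 181 and 157 CPM in DMSO libraries. ESR1 fell by 0.46 ± 0.10 on the log2 scale (adjusted p = 0.0472). The ESR1 call was lost without E2 replicate 1, E2 replicate 2, DMSO replicate 1, Dex with E2 replicate 1 or the unnumbered Dex with E2 library (highest adjusted p = 0.304). ESR2 had 8 and 11 reads in E2 libraries and 10 and 12 reads in DMSO libraries. The progesterone receptor gene PGR was 41 and 31.8 CPM in E2 libraries and 4.09 and 2.53 CPM in DMSO libraries. PGR rose by 3.46 ± 0.40 on the log2 scale (adjusted p = 0.00165). Epithelial markers summed to 3329 and 3494 CPM in E2 libraries and 3249 and 3878 CPM in DMSO libraries. Leukocyte markers summed to at most 3.09 CPM in any of the 4 libraries, with CD3E, CD3D, MS4A1, CD79A and TYROBP at 0. Endothelial markers summed to 8.00 and 9.05 CPM in E2 libraries and 8.76 and 9.19 CPM in DMSO libraries. Among them PECAM1 and EMCN were at 0 and ESAM was at up to 6.90 CPM. Fibroblast and stromal markers summed to 168 and 170.4 CPM in E2 libraries and 165 and 213 CPM in DMSO libraries, with DCN at 0 and COL1A1 at up to 185 CPM. EdgeR called 0 of the tested markers; 2 of the 6 tested endometrial lineage markers had an unadjusted p under 0.05, against 0 in the other marker lists, DESeq2 called 1 of those 6 higher and limma-voom called 0.

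E2 changed 256 of 14201 genes (1.8%), of which 169 were higher (1.19%) and 87 were lower (0.613%) than in DMSO. The raised genes moved further: 97 of the 169 changed by more than 1 on the log2 scale and 45 by more than 2, against 18 and 4 of the 87 lowered genes. The median log2 fold change was 1.17 among the raised genes and -0.70 among the lowered genes. The mean DMSO level, in CPM and not corrected for gene length, was under 5 for 62 of the 169 raised genes and for 3 of the 87 lowered genes, and a fall can be called only where DMSO libraries hold counts. The libraries of the groups did not overlap for any of the 256 genes, as for 5147 of the genes tested (36.2%). Of the called genes, 15 raised and 1 lowered belonged to the list of best known targets, leaving 154 raised and 86 lowered outside it.

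**Figure D1:**
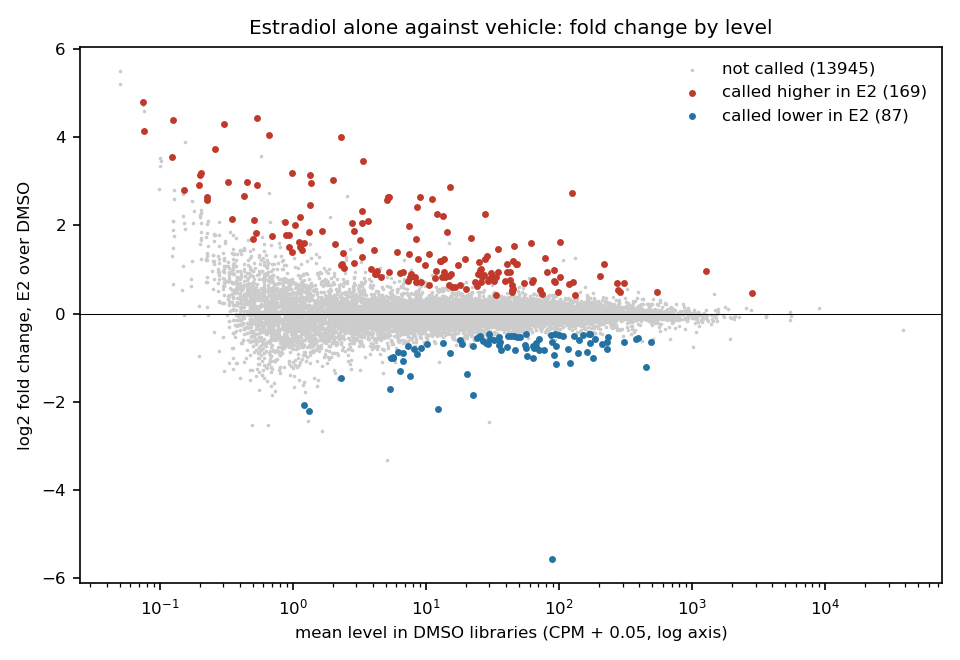
Log2 fold change of E2 over DMSO (vertical axis) against the mean DMSO level in CPM plus 0.05 (horizontal log axis) for the 14201 genes tested, with called genes coloured. The 169 raised genes spread over low levels and large changes, whereas the 87 lowered genes lie mostly between 0 and -1 at moderate levels.

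The number of calls rested on single libraries. Without E2 replicate 1 the fit called 87 genes, without E2 replicate 2 it called 58, without DMSO replicate 1 228 and without DMSO replicate 2 131. Without Dex with E2 replicate 1 it called 182, without the unnumbered Dex with E2 library 184, and without Dex replicate 1 or 2 298 and 293. A total of 49 genes, 43 raised and 6 lowered, were called whichever library was left out, and no called gene changed sign under any setting. The groups that follow hold called genes only, sorted by hand once the calls were known, so their counts are a description to be set beside 169 raised and 87 lowered over all calls. For each group, the number of calls lost without each library is given beside the counts.

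Some values are uncertain because reads may belong to another gene. Of the 252 called genes with a GENCODE transcript, 86 shared at least 200 bases at 90% identity or more with the transcript of another gene, an antisense gene, an overlapping neighbour, a pseudogene or a repeat, and the strand setting of the counting is not given in the sources used here. Among the genes named here these are ADGRF1, ALPK2, ALPP, ALPPL2, ANO1, BMF, CABLES1, CABP7, CEBPB, CHST6, CISH, CRISPLD2, DDIT4, DEGS2, ENG, ESPNP, FAM86B3P, FGD2, GREB1, HCN2, HEXDC, HSPA8, ID2, IQSEC3, ITGB3, JUNB, KAZN, KCNJ5, KCNK15, LHX4, MUC5B, NAV2, NCOA4, PGR, PIK3R3, PLAT, POTEF, RAB11FIP4, RIMS4, SLC16A3, SLC22A5, SLC6A13, SLC6A20, SLC6A6, SLC7A5, SLC9A3R1, SLCO2A1, ST8SIA4, TGFB2, TGM2, VCAN and WNT11.

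**Figure D2:**
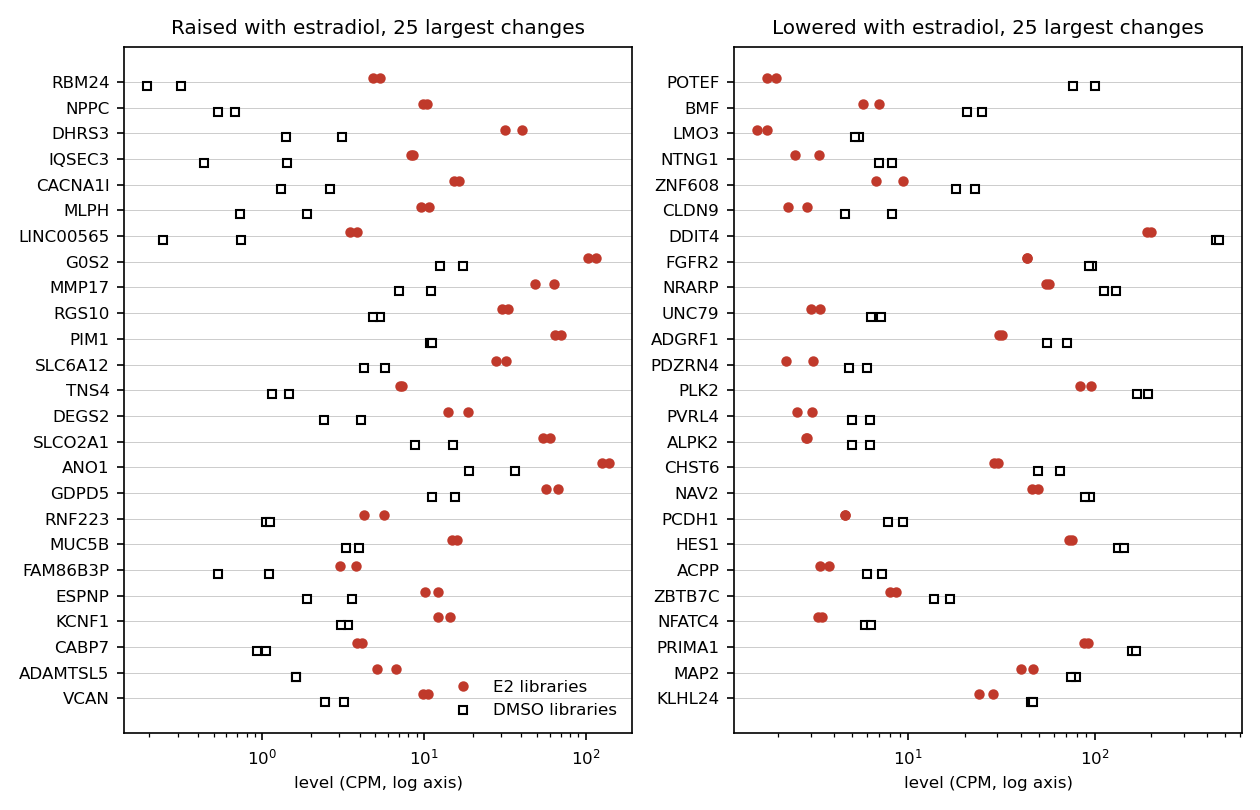
Levels in each E2 library (filled circles) and each DMSO library (open squares), in CPM on a log axis, for the 25 raised and 25 lowered genes with the largest called changes outside the best known targets and a mean log2 CPM above 1. The libraries of the groups are separate in every row, as for every called gene, and most of the raised genes shown sit under 5 CPM in DMSO.

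Of the called genes, 20 encode transporters, ion channels or their partners, 18 raised and 2 lowered. The betaine and GABA transporter gene SLC6A12 was 32.3 and 27.8 CPM in E2 libraries and 5.77 and 4.28 CPM in DMSO libraries. SLC6A12 rose by 2.58 ± 0.29 on the log2 scale (adjusted p = 0.00145). Its neighbour SLC6A13, another GABA transporter gene, was 2.87 and 3.62 CPM in E2 libraries and 0.997 and 1.12 CPM in DMSO libraries. The taurine transporter gene SLC6A6 was 131 and 136 CPM in E2 libraries and 51.9 and 40.1 CPM in DMSO libraries. SLC6A6 rose by 1.54 ± 0.15 on the log2 scale (adjusted p = 0.000676). Betaine and taurine are osmolytes, and all 3 genes belong to the same sodium- and chloride-coupled family. The lactate exporter gene SLC16A3 was 181 and 194 CPM in E2 libraries and 73.6 and 82.2 CPM in DMSO libraries. SLC16A3 rose by 1.27 ± 0.12 on the log2 scale (adjusted p = 0.000565). SLC7A5, which carries large neutral amino acids inward, was 2478 and 2494 CPM in E2 libraries and 1321 and 1230.1 CPM in DMSO libraries. SLC7A5 rose by 0.96 ± 0.16 on the log2 scale (adjusted p = 0.01). SLC30A1, the zinc exporter of the plasma membrane, was 89.6 and 75.6 CPM in E2 libraries and 40.3 and 45.2 CPM in DMSO libraries. SLC22A5, the carnitine importer, was 54.3 and 54.9 CPM in E2 libraries and 32.1 and 33.2 CPM in DMSO libraries. SLCO2A1, which takes up prostaglandins for their clearance, was 54.1 and 60.3 CPM in E2 libraries and 15.2 and 8.85 CPM in DMSO libraries. SLCO2A1 rose by 2.26 ± 0.41 on the log2 scale (adjusted p = 0.0201). In each of these genes both E2 libraries lay above both DMSO libraries, as in every gene called higher. Most such genes, like most genes tested, were not called. Among 253 tested genes with a symbol of SLC and a number, 8 were raised (3.16%) and 1 lowered (0.395%). Over all genes tested 1.19% were raised and 0.613% lowered. The list median was 0.05 against -0.0048 over all genes. That list, made by symbol, holds the scaffold gene SLC9A3R1, 1 of the 8 raised, and leaves out the SLCO carriers. The lowered one was SLC6A20, a proline and imino acid transporter gene of the same family as SLC6A12, SLC6A13 and SLC6A6. SLC6A20 was 18 and 16.6 CPM in E2 libraries and 25.5 and 27.9 CPM in DMSO libraries. Some called genes encode channels. ANO1, the calcium-activated chloride channel of secretory epithelia, was 126 and 139.8 CPM in E2 libraries and 36.6 and 19.1 CPM in DMSO libraries, a log2 fold change of 2.26 ± 0.36 (adjusted p = 0.00841); DMSO replicate 1 was above DMSO replicate 2. CACNA1I, a low-voltage-activated calcium channel gene, was 15.4 and 16.4 CPM in E2 libraries and 2.62 and 1.31 CPM in DMSO libraries. CACNA1I rose by 3.02 ± 0.44 on the log2 scale (adjusted p = 0.00549). The potassium channel gene KCNF1, a silent modifying subunit, was 12.2 and 14.5 CPM in E2 libraries and 3.41 and 3.06 CPM in DMSO libraries. KCNK15, a potassium channel subunit gene of the KCNK family, was 4.05 and 5.03 CPM in E2 libraries and 1.26 CPM in both DMSO libraries. The inward rectifier genes KCNJ1 and KCNJ5 were also raised. KCNJ5 was 51.9 and 54.6 CPM in E2 libraries and 34 and 27.6 CPM in DMSO libraries. HCN2, a pacemaker channel gene, was 21.1 and 25.3 CPM in E2 libraries and 14.3 and 15.5 CPM in DMSO libraries. Of the 23 tested genes of the potassium channel list 3 were called higher (13%) and 0 lower, with a list median of 0.13. The list of calcium, sodium and chloride channels had 1 raised and 0 lowered of 37 tested, with 16 positive and a median of -0.04 (2 raised by DESeq2). UNC79, a subunit of the sodium leak channel complex, was lower, 3.38 and 3.0 CPM in E2 libraries and 6.3 and 7.15 CPM in DMSO libraries. UNC79 fell by 1.08 ± 0.20 on the log2 scale (adjusted p = 0.0244). Of the 20 transport and channel calls, 12 were lost without E2 replicate 1 and 13 without E2 replicate 2. Leaving out DMSO replicates 1 and 2 lost 5 and 9. The numbered and unnumbered Dex with E2 libraries took 2 and 2, and Dex replicates 1 and 2 took 0 and 0 (highest adjusted p = 0.35).

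**Figure D3:**
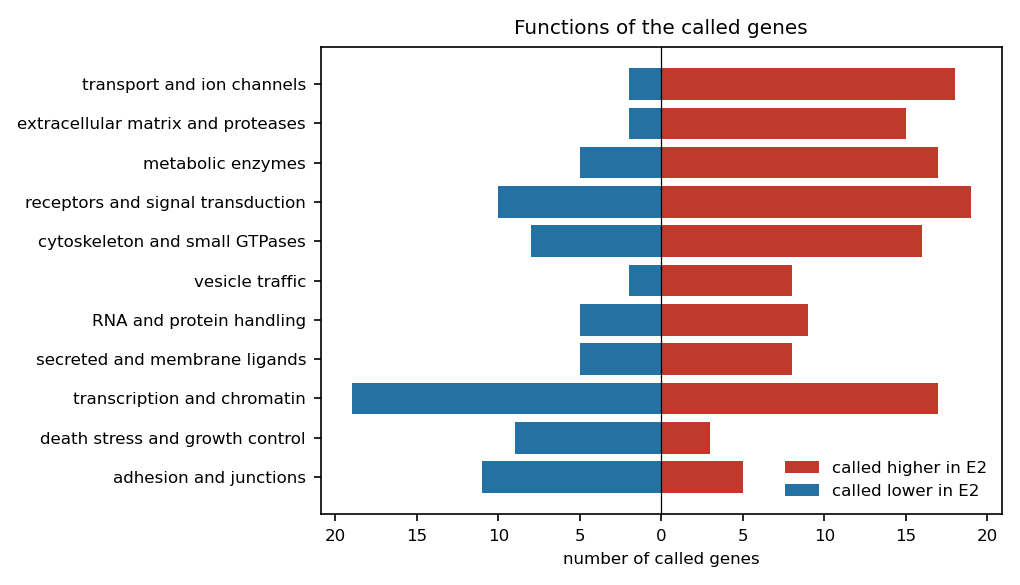
Number of called genes (horizontal axis) higher in E2 to the right and lower in E2 to the left, in 11 classes of function assigned by hand after the calls were known. Transport has 18 raised and 2 lowered genes, whereas adhesion and junctions has 5 raised and 11 lowered genes.

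Of the called genes for metabolic enzymes 17 were raised and 5 lowered. The largest change was in DHRS3, which reduces retinaldehyde back to retinol and so limits retinoic acid formation. It was 31.8 and 40.4 CPM in E2 libraries and 3.1 and 1.41 CPM in DMSO libraries. DHRS3 rose by 4.01 ± 0.49 on the log2 scale (adjusted p = 0.00205). With RARA, a retinoic acid receptor gene on the list of best known targets, it made 2 of 23 tested genes of the retinoid list called higher and 0 lower. The fatty acid and lipid droplet list had 2 raised and 1 lowered of 44 tested, with a median of 0.03. The phospholipid and sphingolipid list had 1 raised and 0 lowered of 34, with a median of 0.01. The share raised was 8.7%, 4.55% and 2.94% in the retinoid, fatty acid and phospholipid lists. Over all genes tested 1.19% were raised and 0.613% lowered. G0S2, an inhibitor of the triglyceride lipase of lipid droplets, was 104 and 117 CPM in E2 libraries and 17.5 and 12.6 CPM in DMSO libraries. G0S2 rose by 2.88 ± 0.33 on the log2 scale (adjusted p = 0.00165). DEGS2, a desaturase and hydroxylase of dihydroceramide, was 14.1 and 18.7 CPM in E2 libraries and 2.41 and 4.08 CPM in DMSO libraries. DEGS2 rose by 2.33 ± 0.28 on the log2 scale (adjusted p = 0.002). GDPD5, which releases choline from glycerophosphocholine, was 57.1 and 67 CPM in E2 libraries and 15.5 and 11.3 CPM in DMSO libraries. GDPD5 rose by 2.22 ± 0.29 on the log2 scale (adjusted p = 0.00291). AGPAT2, an acyltransferase of phosphatidic acid synthesis, was 199 and 217 CPM in E2 libraries and 114 and 139 CPM in DMSO libraries. SCD5, a fatty acid desaturase gene, was lower, 128 and 119 CPM in E2 libraries and 171 and 201 CPM in DMSO libraries. CKB, the brain-type creatine kinase, was 172 and 199 CPM in E2 libraries and 65.6 and 57.4 CPM in DMSO libraries. CKB rose by 1.59 ± 0.19 on the log2 scale (adjusted p = 0.00184). CA2, a carbonic anhydrase gene, was 65.9 and 64.8 CPM in E2 libraries and 28.5 and 26.9 CPM in DMSO libraries. HSD11B2, whose product inactivates cortisol, was 9.29 and 10.7 CPM in E2 libraries and 3.57 and 2.77 CPM in DMSO libraries. HSD11B2 rose by 1.66 ± 0.27 on the log2 scale (adjusted p = 0.00967). MGAT3 and ST8SIA4, glycosyltransferase genes of N-glycan branching and polysialic acid, were raised, and CHST6, a sulfotransferase gene of keratan sulfate, was lower, 28.8 and 30.4 CPM in E2 libraries and 65.3 and 49.5 CPM in DMSO libraries. CHST6 fell by 0.95 ± 0.15 on the log2 scale (adjusted p = 0.00985). ACPP, an acid phosphatase gene best known from prostate, was lowered, 3.38 and 3.75 CPM in E2 libraries and 6.04 and 7.2 CPM in DMSO libraries. Both E2 libraries lay on 1 side of both DMSO libraries in all of them, as in every called gene. The 22 metabolic calls lost 13 without E2 replicate 1 and 15 without E2 replicate 2. They lost 5 and 11 without DMSO replicates 1 and 2. Numbered and unnumbered Dex with E2 libraries left out lost 5 and 5, and Dex replicates 1 and 2 lost 0 and 1 (highest adjusted p = 0.345).

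The called genes for extracellular matrix and secreted proteases were 15 raised and 2 lowered. VCAN, the large proteoglycan versican, was 9.91 and 10.6 CPM in E2 libraries and 3.2 and 2.43 CPM in DMSO libraries. VCAN rose by 1.87 ± 0.19 on the log2 scale (adjusted p = 0.000676). MMP17, a matrix metalloproteinase anchored to the membrane, was 48.5 and 63.6 CPM in E2 libraries and 11 and 7.05 CPM in DMSO libraries. MMP17 rose by 2.64 ± 0.45 on the log2 scale (adjusted p = 0.0138). PLAT, tissue plasminogen activator, was 24.8 and 29.4 CPM in E2 libraries and 10.5 and 6.37 CPM in DMSO libraries. PLAT rose by 1.69 ± 0.28 on the log2 scale (adjusted p = 0.0116). LOXL4, of the lysyl oxidase family that crosslinks collagen and elastin, was 62.5 and 79.1 CPM in E2 libraries and 27.6 and 29.8 CPM in DMSO libraries. LOXL4 rose by 1.30 ± 0.13 on the log2 scale (adjusted p = 0.000654). TGM2, a crosslinking transglutaminase, was 100.1 and 104 CPM in E2 libraries and 55.2 and 68.9 CPM in DMSO libraries. ADAMTSL5, a secreted protein related to the ADAMTS proteases, was 5.12 and 6.67 CPM in E2 libraries and 1.63 and 1.6 CPM in DMSO libraries. ADAMTS15, one of those proteases, was 172 and 183 CPM in E2 libraries and 133 and 132 CPM in DMSO libraries. The membrane protease gene ADAM19 was lowered, 30.5 and 33.1 CPM in E2 libraries and 45.7 and 45.2 CPM in DMSO libraries. CRISPLD2, a secreted protein gene, was also lowered, 41.1 and 38.5 CPM in E2 libraries and 68 and 72.3 CPM in DMSO libraries. The matrix list had 3 raised and 0 lowered of 48 tested genes (6.25% raised), with a list median of -0.04. The protease list had 3 raised and 0 lowered of 41 (7.32% raised), with a median of -0.08. Over all genes tested 1.19% were raised. Most members of both lists, like most genes tested, were not called. COL1A1 and the other tested fibroblast markers were not called. Leaving out E2 replicate 1 or 2 lost 11 and 13 of the 17 matrix and protease calls. For DMSO replicates 1 and 2 the losses were 7 and 9. For the numbered and unnumbered Dex with E2 libraries they were 6 and 6, and for Dex replicates 1 and 2 1 and 1 (highest adjusted p = 0.389).

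Called genes for ligands and some other secreted proteins, outside the best known targets, numbered 8 raised and 5 lowered. NPPC, the precursor of C-type natriuretic peptide, which raises cyclic GMP in neighbouring cells, was 9.91 and 10.5 CPM in E2 libraries and 0.682 and 0.535 CPM in DMSO libraries. NPPC rose by 4.06 ± 0.37 on the log2 scale (adjusted p = 0.000533). It was 1 called gene of 14 tested in the natriuretic peptide and cyclic GMP list (7.14%, against 1.8% of all genes tested). TGFA, a ligand of the epidermal growth factor receptor, was 469 and 479 CPM in E2 libraries and 247 and 184 CPM in DMSO libraries (adjusted p = 0.00947). It was the only called gene among 11 tested of that ligand and receptor family (9.09%, against 1.8% of all genes tested). NRTN, a ligand of the GDNF family, was 87.4 and 102 CPM in E2 libraries and 34.8 and 34.3 CPM in DMSO libraries. NRTN rose by 1.46 ± 0.17 on the log2 scale (adjusted p = 0.00184). The secreted mucin gene MUC5B was 15.9 and 15 CPM in E2 libraries and 3.94 and 3.31 CPM in DMSO libraries. MUC5B rose by 2.09 ± 0.24 on the log2 scale (adjusted p = 0.00165). FGF9 was raised, 8.45 and 7.11 CPM in E2 libraries and 4.41 and 3.26 CPM in DMSO libraries. FGF18, a ligand of the same family, was lowered, 68.4 and 74.7 CPM in E2 libraries and 101 and 100.4 CPM in DMSO libraries. WNT11, a ligand, was 1.91 and 2.12 CPM in E2 libraries and 0.63 and 0.292 CPM in DMSO libraries. FZD5, a Wnt receptor gene, was 198 and 166 CPM in E2 libraries and 109 and 95.8 CPM in DMSO libraries. These were the 2 genes called of 36 tested in the Wnt list (5.56%, against 1.8% of all genes tested). FSTL3, a secreted inhibitor of activin, was 20.3 and 26.1 CPM in E2 libraries and 12.5 and 13.8 CPM in DMSO libraries. Among lowered ligands, PDGFB was 22.2 and 21.1 CPM in E2 libraries and 30.2 and 35 CPM in DMSO libraries. The axon guidance ligand SLIT2 was 168 and 156 CPM in E2 libraries and 234 and 231 CPM in DMSO libraries. TGFB2 was 11.9 and 10.9 CPM in E2 libraries and 18.1 and 18.9 CPM in DMSO libraries. Of the 13 calls for ligands and other secreted proteins, 7 were lost without E2 replicate 1 and 9 without E2 replicate 2. Leaving out DMSO replicates 1 and 2 lost 3 and 6. The numbered and unnumbered Dex with E2 libraries took 4 and 4, and Dex replicates 1 and 2 took 0 and 0 (highest adjusted p = 0.304).

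The called receptor and signalling genes were 19 raised and 10 lowered. RGS10, a GTPase activator that shortens signals of inhibitory G proteins, was 30.3 and 33.2 CPM in E2 libraries and 5.35 and 4.86 CPM in DMSO libraries. RGS10 rose by 2.64 ± 0.16 on the log2 scale (adjusted p = 3.24e-05). PIM1, a serine/threonine kinase usually induced through STAT factors, was 64.2 and 70.4 CPM in E2 libraries and 10.9 and 11.2 CPM in DMSO libraries. PIM1 rose by 2.61 ± 0.21 on the log2 scale (adjusted p = 0.000267). CISH, a STAT feedback inhibitor, was 8.84 and 11.2 CPM in E2 libraries and 4.99 and 5.45 CPM in DMSO libraries. CISH rose by 0.95 ± 0.21 on the log2 scale (adjusted p = 0.0492). These were the 2 genes called of 25 tested in the JAK and STAT list (8%, against 1.8% of all genes tested). PTGER3, a prostanoid receptor gene, was 18.6 and 13.1 CPM in E2 libraries and 6.04 and 5.93 CPM in DMSO libraries. PTGER3 rose by 1.40 ± 0.19 on the log2 scale (adjusted p = 0.00334). IL1R2, the decoy receptor for interleukin 1, was 35.9 and 39.2 CPM in E2 libraries and 15.2 and 19.5 CPM in DMSO libraries. IL4R was 23 and 30.5 CPM in E2 libraries and 15 and 14.6 CPM in DMSO libraries. ADRA2C, an adrenergic receptor gene coupled to inhibitory G proteins, was 44.1 and 47 CPM in E2 libraries and 24.9 and 24.2 CPM in DMSO libraries. ENG, a co-receptor of the TGF-beta family best known from endothelium, was 2.98 and 2.56 CPM in E2 libraries and 0.367 and 0.0486 CPM in DMSO libraries. ENG had 8 reads in the DMSO libraries together. Of the endothelial markers, PECAM1 and EMCN were at 0, and ESAM was at 5.74 to 6.90 CPM in the 4 libraries. FGFR2, a receptor for FGF ligands, was lower, 43.1 and 43.2 CPM in E2 libraries and 96.7 and 93.4 CPM in DMSO libraries, a log2 fold change of -1.14 ± 0.11 (adjusted p = 0.000533). PIK3R3, a regulatory subunit of phosphoinositide 3-kinase, was 286 and 244 CPM in E2 libraries and 395 and 383 CPM in DMSO libraries. PRKCD, a protein kinase C gene, was 41.2 and 40.8 CPM in E2 libraries and 57.6 and 55.8 CPM in DMSO libraries. CABP7, a calcium-binding protein gene, was raised, 4.11 and 3.84 CPM in E2 libraries and 1.05 and 0.924 CPM in DMSO libraries. ADGRF1, an adhesion G protein-coupled receptor gene, was lowered, 31.9 and 30.8 CPM in E2 libraries and 55.4 and 71 CPM in DMSO libraries. ALPK2, an alpha-kinase gene, was also lowered, 2.87 and 2.83 CPM in E2 libraries and 6.19 and 5.01 CPM in DMSO libraries. The 29 receptor and signalling calls lost 21 without E2 replicate 1 and 24 without E2 replicate 2. They lost 14 and 14 without DMSO replicates 1 and 2. Numbered and unnumbered Dex with E2 libraries left out lost 10 and 10, and Dex replicates 1 and 2 lost 1 and 1 (highest adjusted p = 0.43).

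The Notch pathway, in which JAG1 and related ligands on one cell activate receptors on the next, had 27 tested genes, with a list median of -0.10. Both edgeR and limma-voom called 1 raised and 3 lowered. By edgeR this was 3.7% raised and 11.1% lowered, against 1.19% and 0.613% of all genes tested. DESeq2 called 2 raised and 6 lowered, against 213 raised and 126 lowered over all 14201 genes. JAG1 was 136 and 125 CPM in E2 libraries and 204 and 212 CPM in DMSO libraries. JAG1 fell by 0.68 ± 0.10 on the log2 scale (adjusted p = 0.00589). HES1, a repressor and direct Notch target, was 73 and 75.6 CPM in E2 libraries and 133 and 142 CPM in DMSO libraries. HES1 fell by 0.89 ± 0.10 on the log2 scale (adjusted p = 0.00145). NRARP, a target that limits Notch signals, was 57 and 54.8 CPM in E2 libraries and 112 and 129 CPM in DMSO libraries. NRARP fell by 1.11 ± 0.16 on the log2 scale (adjusted p = 0.00589). In all 3 both E2 libraries lay under both DMSO libraries, as in every gene called lower. LFNG, a glycosyltransferase gene that alters which ligands Notch receptors respond to, was raised, 45.6 and 59.7 CPM in E2 libraries and 24.8 and 27.3 CPM in DMSO libraries. LFNG rose by 1.02 ± 0.17 on the log2 scale (adjusted p = 0.01). HES1 was called whichever library was left out; JAG1 lost the call without E2 replicate 2 (highest adjusted p = 0.105), NRARP without E2 replicate 1 or E2 replicate 2 (highest adjusted p = 0.118) and LFNG without E2 replicate 2 (highest adjusted p = 0.171).

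The called genes linked to stress, death or restraint of growth were 9 lowered and 3 raised. DDIT4, a stress-induced inhibitor of mTORC1, was 189.7 and 200.03 CPM in E2 libraries and 443 and 462 CPM in DMSO libraries. DDIT4 fell by 1.22 ± 0.09 on the log2 scale (adjusted p = 0.000221). BMF, a pro-apoptotic member of the BCL2 family that senses detachment, was 6.98 and 5.7 CPM in E2 libraries and 20.6 and 24.7 CPM in DMSO libraries. BMF fell by 1.85 ± 0.19 on the log2 scale (adjusted p = 0.000676). PLK2, a stress-induced kinase gene, was 83.4 and 95.3 CPM in E2 libraries and 167 and 192 CPM in DMSO libraries. PLK2 fell by 1.01 ± 0.13 on the log2 scale (adjusted p = 0.00237). CCNG2, an atypical cyclin of arrested cells, was 62.3 and 52.8 CPM in E2 libraries and 99.7 and 90.1 CPM in DMSO libraries. CCNG2 fell by 0.72 ± 0.12 on the log2 scale (adjusted p = 0.00926). TP53INP1, a p53 target linked to death and autophagy, was 42.2 and 34.8 CPM in E2 libraries and 61.9 and 65.5 CPM in DMSO libraries. TP53INP1 fell by 0.73 ± 0.12 on the log2 scale (adjusted p = 0.0111). The anti-proliferative gene BTG2 was 29.9 and 28.6 CPM in E2 libraries and 42.9 and 39.7 CPM in DMSO libraries. The thioredoxin inhibitor TXNIP was 58.2 and 66.1 CPM in E2 libraries and 83.1 and 90.6 CPM in DMSO libraries. The death receptor gene FAS was 26.2 and 23 CPM in E2 libraries and 35.4 and 35.5 CPM in DMSO libraries. In each, both E2 libraries lay under both DMSO libraries, as in every gene called lower. The p53 target list had 5 lowered (17.2%) and 1 raised (3.45%) of 29 tested genes, with a list median of -0.08. The mTORC1 regulator list had 1 lowered and 0 raised of 32 tested (3.13% lowered). The BCL2 and death receptor list had 2 lowered and 0 raised of 32 tested (6.25% lowered). Over all genes tested 0.613% were lowered and 1.19% raised. CABLES1, a cell cycle regulator, was raised, 57.1 and 55.2 CPM in E2 libraries and 27.2 and 22.9 CPM in DMSO libraries. TP53I11 was raised too, 19.5 and 22.5 CPM in E2 libraries and 9.66 and 9.97 CPM in DMSO libraries. Leaving out E2 replicate 1 or 2 lost 7 and 8 of the 12 growth and death calls. For DMSO replicates 1 and 2 the losses were 4 and 5. For the numbered and unnumbered Dex with E2 libraries they were 4 and 4, and for Dex replicates 1 and 2 0 and 0 (highest adjusted p = 0.273).

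Lists of the cell cycle engine held no gene called by edgeR. Over all 14201 genes tested 1.8% were called and 1619 had an unadjusted p under 0.05. At that share, lists of this size can hold 0 calls without differing from other genes. Of 48 tested genes of DNA replication edgeR called 0, with 3 at an unadjusted p under 0.05 and 0 called by DESeq2 or limma-voom. Of 40 mitosis genes edgeR called 0, with 1 at an unadjusted p under 0.05 and 0 called by DESeq2 or limma-voom. Of 33 genes for G1 cyclins, their kinases and inhibitors edgeR called 0, with 5 at an unadjusted p under 0.05, 2 called lower by DESeq2 and 0 by limma-voom. Ribosome biogenesis had 1 raised gene of 48 tested, but 22 had an unadjusted p under 0.05 and 43 were positive, DESeq2 called 5 higher and limma-voom 1, with a list median of 0.23 against -0.0048 over all genes. The 106 tested ribosomal protein genes had 0 calls by edgeR, 5 at an unadjusted p under 0.05, 1 lower by DESeq2 and 0 by limma-voom, with a median of -0.06. The cholesterol synthesis list (30 tested) likewise had 0 calls by edgeR, 2 at an unadjusted p under 0.05, 1 lower by DESeq2 and 0 by limma-voom.

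The called adhesion and junction genes were 11 lowered and 5 raised. The desmosome genes JUP (plakoglobin) and PKP1 (plakophilin) were both lower. JUP was 245 and 261 CPM in E2 libraries and 344 and 413 CPM in DMSO libraries. JUP fell by 0.58 ± 0.13 on the log2 scale (adjusted p = 0.0492). PKP1 was 5.52 and 5.03 CPM in E2 libraries and 8.87 and 9.29 CPM in DMSO libraries. Periplakin, PPL, which links desmosomes to keratin filaments, was 73.8 and 77.8 CPM in E2 libraries and 109 and 105 CPM in DMSO libraries. The integrin genes ITGB4, of hemidesmosomes, and ITGB3 were lower. ITGB4 was 186 and 207 CPM in E2 libraries and 276 and 337 CPM in DMSO libraries. ITGB4 fell by 0.64 ± 0.12 on the log2 scale (adjusted p = 0.023). ITGB3 was 23.9 and 22.6 CPM in E2 libraries and 32.5 and 39.4 CPM in DMSO libraries. CLDN9, a tight junction gene, was 2.25 and 2.87 CPM in E2 libraries and 4.57 and 8.17 CPM in DMSO libraries. NTNG1, a membrane-anchored netrin, was 3.32 and 2.47 CPM in E2 libraries and 6.98 and 8.22 CPM in DMSO libraries. PCDH1, a protocadherin gene, was 4.56 and 4.55 CPM in E2 libraries and 7.77 and 9.34 CPM in DMSO libraries. PVRL4, the cell adhesion protein nectin 4, was 2.53 and 3.05 CPM in E2 libraries and 6.25 and 5.01 CPM in DMSO libraries. In all of these both E2 libraries lay under both DMSO libraries, as in every gene called lower. The list of keratins and junctions had 4 lowered (9.52%) and 0 raised of 42 tested genes, with a median of -0.12. The integrin and adhesion list had 3 lowered (8.82%) and 0 raised of 34, with a median of -0.08. Over all genes tested 0.613% were lowered and 1.19% raised. Among the raised adhesion genes, KAZN, a desmosome-associated protein gene, was 303 and 321 CPM in E2 libraries and 109 and 94.7 CPM in DMSO libraries. KAZN rose by 1.62 ± 0.17 on the log2 scale (adjusted p = 0.000942). TNS4, a focal adhesion protein gene, was 7.32 and 7.15 CPM in E2 libraries and 1.15 and 1.46 CPM in DMSO libraries. TNS4 rose by 2.46 ± 0.19 on the log2 scale (adjusted p = 0.000267). Of the 16 adhesion calls, 12 were lost without E2 replicate 1 and 12 without E2 replicate 2. Leaving out DMSO replicates 1 and 2 lost 5 and 10. The numbered and unnumbered Dex with E2 libraries took 6 and 5, and Dex replicates 1 and 2 took 0 and 0 (highest adjusted p = 0.314).

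The called cytoskeleton and small GTPase genes were 16 raised and 8 lowered. RHOU, an atypical small GTPase gene, was 50.9 and 42.1 CPM in E2 libraries and 20.7 and 18.6 CPM in DMSO libraries. RHOU rose by 1.24 ± 0.13 on the log2 scale (adjusted p = 0.000683). RHOBTB1 was 27.4 and 25.9 CPM in E2 libraries and 11.2 and 9.82 CPM in DMSO libraries. RHOBTB1 rose by 1.34 ± 0.17 on the log2 scale (adjusted p = 0.00205). Several raised genes act on small GTPases. IQSEC3, an exchange factor of ARF proteins, was 8.28 and 8.52 CPM in E2 libraries and 1.42 and 0.438 CPM in DMSO libraries. IQSEC3 rose by 3.19 ± 0.46 on the log2 scale (adjusted p = 0.00538). TBC1D16, a RAB GTPase activator, was 103 and 109 CPM in E2 libraries and 49.1 and 48.2 CPM in DMSO libraries. RASA3, a RAS and RAP GTPase activator, was 68.6 and 70.4 CPM in E2 libraries and 46.8 and 41.8 CPM in DMSO libraries. NAV2, a neuron navigator gene, was lower, 49.8 and 46.2 CPM in E2 libraries and 94.4 and 88.8 CPM in DMSO libraries. NAV2 fell by 0.93 ± 0.10 on the log2 scale (adjusted p = 0.00101). MAP2, a microtubule-associated protein gene of dendrites, was lower as well, 46.6 and 40.2 CPM in E2 libraries and 79.7 and 74 CPM in DMSO libraries. Called genes of vesicle traffic numbered 8 raised and 2 lowered. MLPH, which ties RAB27 vesicles to myosin, was 9.57 and 10.8 CPM in E2 libraries and 1.89 and 0.729 CPM in DMSO libraries. MLPH rose by 2.97 ± 0.44 on the log2 scale (adjusted p = 0.0062). SYT7, a calcium sensor of exocytosis, was 4.39 and 5.56 CPM in E2 libraries and 2.47 and 2.09 CPM in DMSO libraries. RAB11FIP4, an effector of recycling endosomes, was lower, 107 and 108 CPM in E2 libraries and 166 and 176 CPM in DMSO libraries. The 24 cytoskeleton calls lost 16 without E2 replicate 1 and 21 without E2 replicate 2. They lost 7 and 10 without DMSO replicates 1 and 2. Numbered and unnumbered Dex with E2 libraries left out lost 7 and 7, and Dex replicates 1 and 2 lost 1 and 2 (highest adjusted p = 0.324). Leaving out E2 replicate 1 or 2 lost 10 and 10 of the 10 vesicle calls. For DMSO replicates 1 and 2 the losses were 2 and 7. For the numbered and unnumbered Dex with E2 libraries they were 2 and 1, and for Dex replicates 1 and 2 1 and 1 (highest adjusted p = 0.324).

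Called transcription factor and chromatin genes were 17 raised and 19 lowered. CBFA2T3, a corepressor, was 49.8 and 54.2 CPM in E2 libraries and 15.3 and 13.3 CPM in DMSO libraries. CBFA2T3 rose by 1.86 ± 0.19 on the log2 scale (adjusted p = 0.000793). MN1, a transcriptional coregulator, was 75.3 and 67.2 CPM in E2 libraries and 25.3 and 17.9 CPM in DMSO libraries. MN1 rose by 1.72 ± 0.24 on the log2 scale (adjusted p = 0.00484). TFCP2L1, a grainyhead-related factor, was 30.01 and 29.7 CPM in E2 libraries and 13.3 and 12.7 CPM in DMSO libraries. CEBPB, a factor of decidualization and of inflammation, was 56 and 64.4 CPM in E2 libraries and 32.3 and 34.9 CPM in DMSO libraries. CEBPB rose by 0.84 ± 0.10 on the log2 scale (adjusted p = 0.00205). NCOA4, a nuclear receptor coactivator that also carries ferritin to autophagy, was 469 and 419 CPM in E2 libraries and 276 and 269.6 CPM in DMSO libraries. PPARGC1B, a coactivator of mitochondrial genes, was 29.7 and 28.5 CPM in E2 libraries and 16.4 and 14.6 CPM in DMSO libraries. VDR, the vitamin D receptor gene, was 29.1 and 30.2 CPM in E2 libraries and 19.7 and 20.4 CPM in DMSO libraries. With PGR and RARA it made 3 raised of 30 tested nuclear receptor genes (10%), and ESR1 was the only 1 lowered (3.33%). Over all genes tested 1.19% were raised and 0.613% lowered. LHX4 was 2.08 and 2.74 CPM in E2 libraries and 0.42 and 0.34 CPM in DMSO libraries. LHX4 rose by 2.66 ± 0.32 on the log2 scale (adjusted p = 0.002). It shares 1575 bases with the opposite strand of ACBD6 and is uncertain. RBM24, a muscle and heart splicing regulator, belongs with RNA handling and had the largest fold change among the genes above a mean log2 CPM of 1 outside the best known targets, 4.84 and 5.34 CPM in E2 libraries and 0.315 and 0.194 CPM in DMSO libraries. RBM24 rose by 4.30 ± 0.38 on the log2 scale (adjusted p = 0.000533). The lowered regulators included ID1 and ID2, dimerisation partners that block basic helix-loop-helix factors and are typical BMP targets. ID1 was 127 and 137 CPM in E2 libraries and 207 and 253 CPM in DMSO libraries. ID1 fell by 0.80 ± 0.12 on the log2 scale (adjusted p = 0.0053). ID2 was 6.14 and 6.4 CPM in E2 libraries and 10.3 and 9.87 CPM in DMSO libraries. JUNB, an AP-1 subunit, was 35.3 and 44 CPM in E2 libraries and 58.4 and 75.3 CPM in DMSO libraries. SATB1, a chromatin organiser, was 12 and 11.8 CPM in E2 libraries and 18.4 and 17.5 CPM in DMSO libraries. ARID5B was 21.9 and 19.8 CPM in E2 libraries and 36.5 and 37.1 CPM in DMSO libraries. ARID5B fell by 0.82 ± 0.11 on the log2 scale (adjusted p = 0.00322). PNRC1, a nuclear receptor coactivator, was 36.4 and 29.9 CPM in E2 libraries and 57.4 and 55.5 CPM in DMSO libraries. PNRC1 fell by 0.77 ± 0.11 on the log2 scale (adjusted p = 0.00543). ZNF608 was 9.35 and 6.71 CPM in E2 libraries and 22.9 and 18 CPM in DMSO libraries. ZNF608 fell by 1.36 ± 0.18 on the log2 scale (adjusted p = 0.00334). LMO3, a LIM-only cofactor, was 1.75 and 1.55 CPM in E2 libraries and 5.46 and 5.2 CPM in DMSO libraries. LMO3 fell by 1.70 ± 0.23 on the log2 scale (adjusted p = 0.00416). NFATC4, a factor activated by calcineurin, was 3.43 and 3.27 CPM in E2 libraries and 5.83 and 6.32 CPM in DMSO libraries. ZBTB7C, of the zinc finger and BTB family, was 8.56 and 7.95 CPM in E2 libraries and 13.7 and 16.7 CPM in DMSO libraries. ZFP36L1, which brings AU-rich messenger RNAs to decay, was also lower, 145 and 149 CPM in E2 libraries and 222 and 234 CPM in DMSO libraries. ZFP36L1 fell by 0.63 ± 0.10 on the log2 scale (adjusted p = 0.00826). Both E2 libraries lay under both DMSO libraries in each of these lowered genes, as in every gene called lower. The zinc finger genes named ZNF had 1 raised and 2 lowered of 480 tested, 0.625% called against 1.8% of all genes. Of the 36 transcription calls, 27 were lost without E2 replicate 1 and 31 without E2 replicate 2. Leaving out DMSO replicates 1 and 2 lost 13 and 19. The numbered and unnumbered Dex with E2 libraries took 13 and 13, and Dex replicates 1 and 2 took 1 and 1 (highest adjusted p = 0.391).

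Among raised protein handling genes, the co-chaperone gene BAG3 was 154 and 159 CPM in E2 libraries and 84.7 and 76.8 CPM in DMSO libraries. BAG3 rose by 0.96 ± 0.10 on the log2 scale (adjusted p = 0.000695). QSOX1, an oxidase that forms disulfide bonds in secreted proteins, was 473 and 514 CPM in E2 libraries and 289 and 323 CPM in DMSO libraries. QSOX1 rose by 0.69 ± 0.10 on the log2 scale (adjusted p = 0.00562). HSPA8, the constitutive HSC70 chaperone, was 3906 and 3902 CPM in E2 libraries and 2846 and 2816 CPM in DMSO libraries. HSPA8 rose by 0.46 ± 0.10 on the log2 scale (adjusted p = 0.0406). RNF223, a RING finger gene, was 4.28 and 5.65 CPM in E2 libraries and 1.05 and 1.12 CPM in DMSO libraries. Among lowered genes of this group, KLHL24, of the family that brings substrates to cullin ubiquitin ligases, was 28.5 and 23.8 CPM in E2 libraries and 45.7 and 46.8 CPM in DMSO libraries. PDZRN4, a gene with PDZ and RING domains, was 2.2 and 3.09 CPM in E2 libraries and 5.98 and 4.81 CPM in DMSO libraries. The 14 RNA and protein handling calls lost 8 without E2 replicate 1 and 11 without E2 replicate 2. They lost 6 and 8 without DMSO replicates 1 and 2. Numbered and unnumbered Dex with E2 libraries left out lost 5 and 5, and Dex replicates 1 and 2 lost 1 and 1 (highest adjusted p = 0.354). A further 19 raised and 8 lowered genes had an unclear or other role. POTEF, whose protein joins ankyrin repeats to an actin-like part, had the lowest fold change of all, 1.75 and 1.94 CPM in E2 libraries and 75.9 and 99.8 CPM in DMSO libraries. It was at most 2.11 CPM in the 4 libraries with dexamethasone, and the DMSO libraries stood apart from every other library. It shares 3536 bases at 99.3% identity with POTEE and 1354 bases at 92% with the actin gene ACTB. Which sequence gave the reads counted for it in DMSO libraries was not tested, and the value is not read as a change of POTEF expression. NARF was 98.8 and 108 CPM in E2 libraries and 46.5 and 48.9 CPM in DMSO libraries. NARF rose by 1.12 ± 0.10 on the log2 scale (adjusted p = 0.000533). LINC00565, a long non-coding RNA, was 3.83 and 3.49 CPM in E2 libraries and 0.735 and 0.243 CPM in DMSO libraries. The pseudogene ESPNP was 10.2 and 12.3 CPM in E2 libraries and 3.57 and 1.9 CPM in DMSO libraries. The pseudogene FAM86B3P was 3.04 and 3.8 CPM in E2 libraries and 1.1 and 0.535 CPM in DMSO libraries. PRIMA1, which anchors acetylcholinesterase in membranes, was lowered, 87.7 and 91.3 CPM in E2 libraries and 159 and 166 CPM in DMSO libraries. Leaving out E2 replicate 1 or 2 lost 20 and 22 of the 27 other or unclear calls. For DMSO replicates 1 and 2 the losses were 9 and 17. For the numbered and unnumbered Dex with E2 libraries they were 10 and 10, and for Dex replicates 1 and 2 1 and 1 (highest adjusted p = 0.4).

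The best known targets, 15 raised and 1 lowered of 38 tested, ranged from 0.53 to 4.43 in log2 fold change among the raised. The shares were 39.5% raised and 2.63% lowered, against 1.19% and 0.613% of all genes tested. The lowered one was CYP1A1, a dioxin-inducible monooxygenase gene. Of the 16 best known target calls, 9 were lost without E2 replicate 1 and 11 without E2 replicate 2. Leaving out DMSO replicates 1 and 2 lost 3 and 4. The numbered and unnumbered Dex with E2 libraries took 1 and 1, and Dex replicates 1 and 2 took 0 and 0 (highest adjusted p = 0.344).

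Raised genes often lay side by side on a chromosome, a pattern seen in the data and then counted. When the tested genes were put in RefSeq order, 165 of the 169 raised genes could be placed, and 32 of them (19.4%) had a raised gene as an adjacent tested gene, in 19 adjacent pairs. Expressed per neighbouring place, 11.5% of the places beside a raised gene held another raised gene, against 1.18% of all placed genes being raised. Of the 87 lowered genes 2 (2.3%) were adjacent, UNC79 and PRIMA1 on chromosome 14, in 1 pair; 1.15% of the places beside a lowered gene held another, against 0.622% of all placed genes being lowered. These shares are a description and were not tested. The number of raised pairs was 4 without E2 replicate 1, when 62 placed genes were called higher, and 1 without E2 replicate 2, when 48 were, and it was 10 and 14 without DMSO replicates 2 and 1. It was 16 without either library of Dex with E2 and 29 without either library of Dex alone.

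The longest run was on chromosome 2, where 6 tested genes in a row were raised. They were, in order, ALPP, ALPPL2, ALPI, ECEL1, PRSS56 and CHRND, and NPPC lay before them with DIS3L2 between. The first 3 encode placental, germ cell and intestinal alkaline phosphatases and are on the best known list; they are given here because of their position, chosen after their values were seen. ALPPL2 was 43.5 and 47.4 CPM in E2 libraries and 9.5 and 7.44 CPM in DMSO libraries. ALPPL2 rose by 2.43 ± 0.36 on the log2 scale (adjusted p = 0.0062). ALPP was 10.9 and 12 CPM in E2 libraries and 1.73 and 0.875 CPM in DMSO libraries. ALPP rose by 3.14 ± 0.54 on the log2 scale (adjusted p = 0.0131). ALPI was 9.52 and 11.4 CPM in E2 libraries and 0.735 and 0.243 CPM in DMSO libraries. ALPI rose by 4.43 ± 0.41 on the log2 scale (adjusted p = 0.000533). ECEL1, an endothelin-converting enzyme-like protease gene, was 7.49 and 8.04 CPM in E2 libraries and 3.46 and 4.86 CPM in DMSO libraries. ECEL1 rose by 0.90 ± 0.19 on the log2 scale (adjusted p = 0.0397). PRSS56, a trypsin-like protease gene, had 28 and 41 reads in E2 libraries and 1 and 2 reads in DMSO libraries. CHRND, a subunit of the muscle acetylcholine receptor, had 26 and 30 reads in E2 libraries and 3 reads in each DMSO library. In all 7 raised genes both E2 libraries lay above both DMSO libraries, as in every gene called higher. The libraries of the groups did not overlap for 36.2% of all genes tested. The genes between and beside them were not called: DIS3L2 had a log2 fold change of 0.25 ± 0.10, COPS7B one of -0.05 ± 0.09, TIGD1 one of 0.66 ± 0.27 and EIF4E2 one of 0.10 ± 0.12. ALPP and ALPPL2 transcripts align over 2500 bases at 90.3% identity, so reads of these 2 genes may be split between them. ALPI, PRSS56 and NPPC were called whichever library was left out; the others lost the call without these libraries: ALPP without E2 replicate 1, E2 replicate 2 or DMSO replicate 2 (highest adjusted p = 0.151), ALPPL2 without E2 replicate 1 or E2 replicate 2 (highest adjusted p = 0.105), ECEL1 without E2 replicate 1, E2 replicate 2, DMSO replicate 1, Dex with E2 replicate 1 or the unnumbered Dex with E2 library (highest adjusted p = 0.315) and CHRND without E2 replicate 1, E2 replicate 2, DMSO replicate 1 or DMSO replicate 2 (highest adjusted p = 0.122).

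Of the raised genes 120 and of the lowered genes 72 had a promoter of 300 bases in RefSeq (250 before to 50 after the start, GRCh38.p14). The full estrogen response element, GGTCA and TGACC with any 3 bases between, was in 0 of the 120 and 0 of the 72 promoters, against 0.00896% of 11159 promoters of tested genes. Its half-site AGGTCA, on either strand, was in 8 of the 120 raised (6.67%), 7 of the 72 lowered (9.72%) and 9.71% of the tested promoters. The half-site lies within some full elements and was counted in either case. A further 4 motifs were searched on both strands. The AP-1 site TGANTCA was in 4.17% of raised, 6.94% of lowered and 4.32% of tested promoters, and the SP1 box GGGCGG in 70.8%, 55.6% and 70.1%. The dioxin response core GCGTG was in 41.7%, 51.4% and 50.8%, and the cyclic AMP response half-site TGACG in 23.3%, 38.9% and 34.0%. Some of these motifs can overlap each other. Of the 8 raised promoters with a half-site, 4 belong to the run on chromosome 2. ECEL1 and CHRND of that run, and NPPC before it, were not among the 8. These 4 are printed 5′ to 3′ on the plus strand as the promoters of the run in which the half-site was found, with the half-site in capitals:
ALPP: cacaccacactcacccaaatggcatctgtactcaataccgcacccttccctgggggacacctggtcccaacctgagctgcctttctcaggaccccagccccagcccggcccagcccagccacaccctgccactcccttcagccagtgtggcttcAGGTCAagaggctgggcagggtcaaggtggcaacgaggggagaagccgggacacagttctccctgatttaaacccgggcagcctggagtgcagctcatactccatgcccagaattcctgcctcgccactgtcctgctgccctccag
ALPPL2: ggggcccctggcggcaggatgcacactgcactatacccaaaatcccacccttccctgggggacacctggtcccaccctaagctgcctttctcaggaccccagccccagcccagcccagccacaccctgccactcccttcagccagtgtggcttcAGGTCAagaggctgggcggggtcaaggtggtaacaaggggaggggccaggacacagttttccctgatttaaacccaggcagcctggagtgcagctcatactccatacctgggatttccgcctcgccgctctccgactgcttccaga
ALPI: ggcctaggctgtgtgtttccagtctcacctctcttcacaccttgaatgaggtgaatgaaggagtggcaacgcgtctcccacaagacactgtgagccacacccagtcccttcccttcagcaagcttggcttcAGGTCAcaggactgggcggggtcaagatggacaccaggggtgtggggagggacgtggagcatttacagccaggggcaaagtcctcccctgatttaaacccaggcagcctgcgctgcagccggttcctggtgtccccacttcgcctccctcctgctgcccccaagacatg
PRSS56: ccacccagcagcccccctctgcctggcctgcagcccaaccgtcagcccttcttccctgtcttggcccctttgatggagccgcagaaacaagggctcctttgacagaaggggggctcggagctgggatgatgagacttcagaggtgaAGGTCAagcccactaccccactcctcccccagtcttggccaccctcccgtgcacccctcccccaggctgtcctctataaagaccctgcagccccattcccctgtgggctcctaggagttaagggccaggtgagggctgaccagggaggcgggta
They lie at chr2:232378501-232378800 (ALPP), chr2:232406594-232406893 (ALPPL2), chr2:232455903-232456202 (ALPI) and chr2:232520138-232520437 (PRSS56), and the half-sites begin at positions -96, -96, -119 and -104 relative to the start site, in that order. The stretch around the half-site reads nearly alike in ALPP, ALPPL2 and ALPI, so their matches are not independent of each other. A match is a description of letters and shows no binding.

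Further runs were shorter. On chromosome 12, IQSEC3, SLC6A12 and SLC6A13 were 3 tested genes in a row, with log2 fold changes of 3.19 ± 0.46, 2.58 ± 0.29 and 1.62 ± 0.33, and the next gene, KDM5A, was at 0.06 ± 0.11. IQSEC3 lost its call without E2 replicate 1 or E2 replicate 2 (highest adjusted p = 0.0841), and SLC6A13 without E2 replicate 1, E2 replicate 2, DMSO replicate 1 or DMSO replicate 2 (highest adjusted p = 0.35). On chromosome 17, HEXDC, C17orf62 and NARF were 3 in a row, with 1.35 ± 0.14, 0.95 ± 0.14 and 1.12 ± 0.10, and SLC16A3 and SECTM1 lay nearby among genes that were not called. Elsewhere on chromosome 17, RAPGEFL1, RARA, IGFBP4 and TNS4 were raised while CDC6 and TOP2A between them were at 0.00 ± 0.10 and -0.03 ± 0.12. The remaining pairs included the inward rectifier genes KCNJ1 and KCNJ5 on chromosome 11, the overlapping KCNK15 and RIMS4 on chromosome 20, and FGD2 and PIM1 on chromosome 6. C17orf62 lost its call without E2 replicate 2 (highest adjusted p = 0.114).

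**Figure D4:**
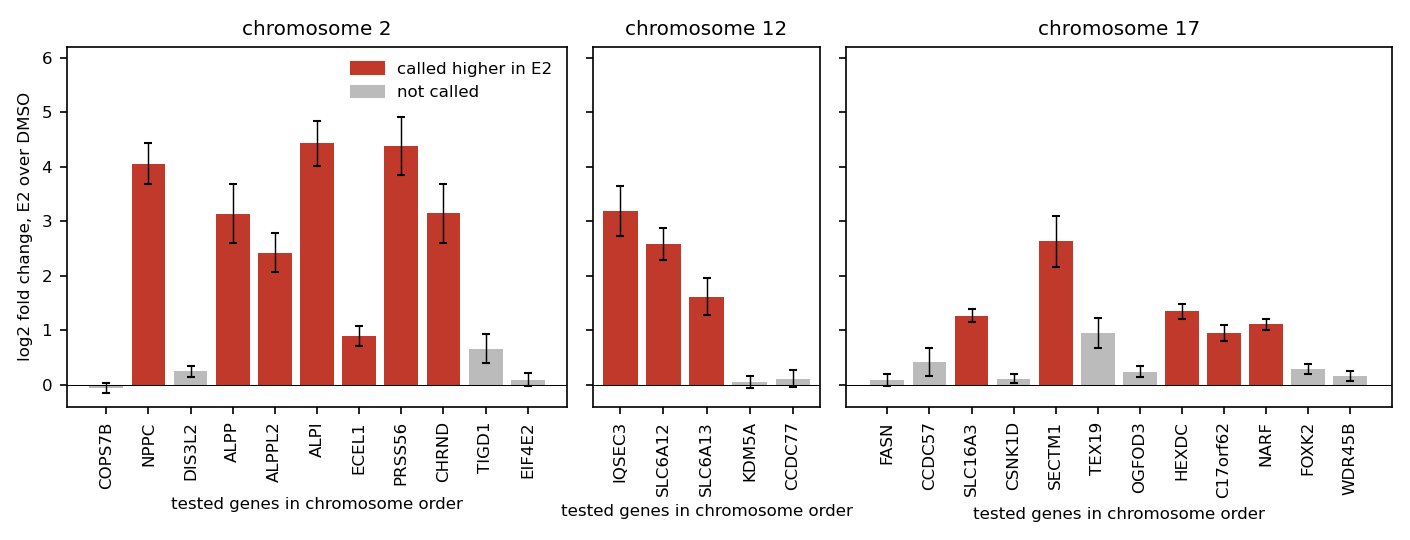
Log2 fold change of E2 over DMSO with SE (vertical axis) for tested genes in chromosome order, evenly spaced, in 3 stretches; red bars are called higher and grey bars are not called. Raised genes stand together next to genes near 0, such as EIF4E2 at 0.10 and KDM5A at 0.06; the bar of PRSS56 rests on 3 reads in the DMSO libraries together.

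The effect of E2 in cells given dexamethasone was read from Dex with E2 against Dex alone. The values of these 4 libraries do not enter the difference of E2 and DMSO, but the fit takes its estimate of spread from all 8 libraries, and the 2 Dex with E2 libraries, each left out, took 75 and 73 of the 256 calls. That comparison called 379 genes (2.67%), 117 higher (0.824%) and 262 lower (1.84%). Of the 169 genes raised by E2 alone, 158 were positive with dexamethasone and 77 were called higher, against 49.4% of all genes positive; their median log2 fold change was 0.70 with dexamethasone and 1.17 without, where the call itself had selected large changes. Of the 87 lowered genes, 86 were negative and 54 were called lower, with medians of -0.61 and -0.70. The count of 379 fell to 89 without Dex with E2 replicate 1, to 100 without the unnumbered library of that group and to 90 without Dex replicate 2. Dex replicate 1 was above Dex replicate 2 in 147 of the 169 raised genes and 17 of the 87 lowered genes. The share over all genes was not counted for this pair. DMSO replicate 1 was above DMSO replicate 2 in 65.1% of raised and 34.5% of lowered genes, against 50.8% of all genes tested. E2 replicate 1 was above E2 replicate 2 in 29% and 56.3%, against 49.3%. Without Dex replicate 1, the comparison called 437 genes (3.01%), 189 higher (1.3%) and 248 lower (1.71%). Of the 169, 91 were then called higher and 161 were positive, with a median of 0.92. Of the 87, 50 were called lower and 85 were negative. The difference of the effects itself was called by edgeR for 3 genes (0.0211%), 1 positive (0.00704%) and 2 negative (0.0141%), and 2 of the 3 were among the 256. DESeq2 called 15 and limma-voom 3. Among the 256 called genes, 82 (32%) had an unadjusted p under 0.05 for that difference by edgeR, 67 (26.2%) by DESeq2 and 78 (30.5%) by limma-voom, against 5.16%, 2.89% and 5.13% of all genes tested. The 256 were selected on E2 and DMSO libraries that also enter the difference, so nothing is read from these shares.

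All 20 called genes for transport and channels kept their sign with dexamethasone, and 10 were called the same way. The 12 genes of growth restraint and death all kept their sign, with 7 called. Most called genes did so. Of all 169 raised genes 93.5% kept their sign and 45.6% were called the same way, and of all 87 lowered genes 98.9% and 62.1%. These counts are therefore not particular to the classes. DDIT4 was 275 and 255 CPM in Dex with E2 libraries and 529.7 and 538 CPM in Dex libraries (log2 fold change -1.01 ± 0.09, adjusted p = 0.00105). BMF was 9.23 and 8.39 CPM in Dex with E2 libraries and 18.3 and 25.3 CPM in Dex libraries (log2 fold change -1.30 ± 0.18, adjusted p = 0.00433). RGS10 was 40.2 and 31.4 CPM in Dex with E2 libraries and 7.75 and 6.79 CPM in Dex libraries (log2 fold change 2.30 ± 0.15, adjusted p = 0.000173). The growth factor receptor gene FGFR2 was 45.5 and 49.3 CPM in Dex with E2 libraries and 78.8 and 93.8 CPM in Dex libraries (log2 fold change -0.86 ± 0.11, adjusted p = 0.00329). For SLC6A12 the values were 30.6 and 27.8 CPM in Dex with E2 libraries and 21.8 and 10.3 CPM in Dex libraries (log2 fold change 0.85 ± 0.26, adjusted p = 0.126), and the difference of the effects was not called. In these 5 genes the libraries with E2 lay on 1 side of both libraries without it, in the same direction as without dexamethasone. The share of all genes without overlap was not counted for this comparison, and in E2 against DMSO it was 36.2%. All of the 5 but SLC6A12 were called with dexamethasone, so nothing further is read from the separation.

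**Figure D5:**
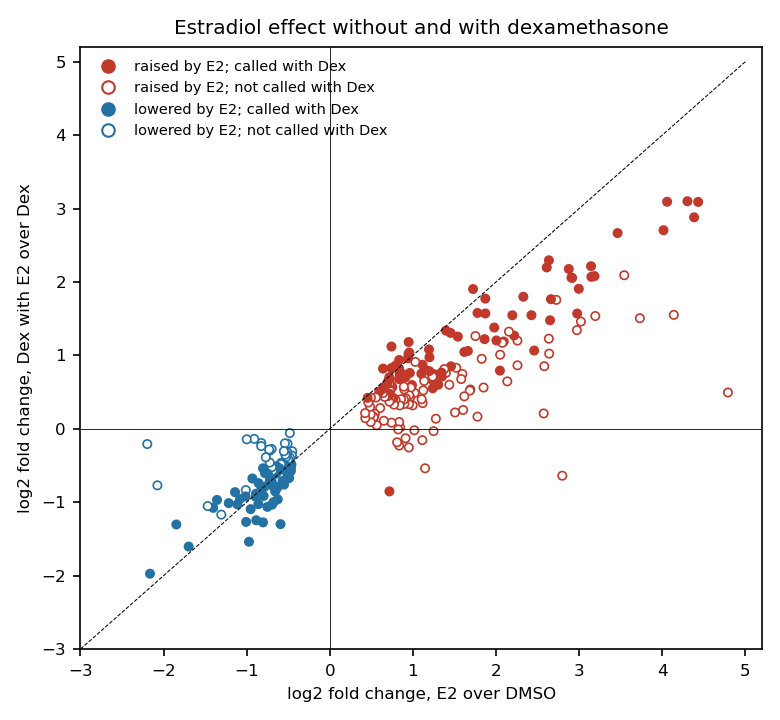
Log2 fold change of Dex with E2 over Dex alone (vertical axis) against that of E2 over DMSO (horizontal axis) for the called genes other than POTEF, with filled symbols for genes also called with dexamethasone; the dashed line marks equal changes. Most raised genes lie above 0 but under the line, with medians of 0.70 and 1.17, and the lowered genes lie near it.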

How the data were processed

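RNA from Ishikawa cells was sequenced with a stranded mRNA kit, per the labels' protocols. Raw counts per gene symbol were deposited by the authors for 8 libraries, with HISAT2 2.0.4, Subread, featureCounts 1.5.1, DESeq2 1.14.1 and hg19 named in the submitters' processing notes; no source used here gives the annotation or strand setting. The counts were fitted with edgeR 4.0.16 (R 4.3.3; genes kept by filterByExpr, TMM, quasi-likelihood, 4 groups in 1 fit, 4 residual degrees of freedom), with DESeq2 1.42.0 and limma 3.58.1 (voom) as alternatives; the script was tested on simulated counts. Nothing says that replicates were separate cultures, so the spread behind each p-value is that between 2 libraries of a group and may be purely technical, and an exact permutation test of 2 libraries against 2 cannot go below p = 0.333. The combination group had 1 library with no number of its own. Replicate numbers are shared by the groups but nothing in the labels says what they pair. Normalised values of the same libraries were not used.

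The comparison and the gene lists were chosen with earlier results of these data known, and the classes of function were assigned by hand after the calls were known, so neither is tested. Any called gene could be named; values per library are printed for the 25 largest changes in each direction above a mean log2 CPM of 1 outside the best known targets. They are also printed for some of the called members of the lists, the rest being counted only, and, chosen after their values were seen, for other genes of each class and on runs of neighbours. For lists with no called gene only counts are given. Gene order came from RefSeq (GRCh38.p14), promoters likewise, and shared sequence from blastn 2.17.0 against GENCODE transcripts (at least 200 bases, 90% identity). Coordinates printed are of GRCh38.p14, not of the build of the counts. Some called genes are counted in the totals but not reported here by name.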

Additional observations from a re-analysis of the deposited data

Results flagged for a closer look

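For 3 genes the estradiol effect with dexamethasone differed from that without it by the test of the difference itself (edgeR, adjusted over all genes tested). EHF, an epithelial ETS factor, had 16.7 and 19.1 CPM in Dex with E2 libraries and 33.0 and 31.7 CPM in Dex libraries, whereas it had 13.9 and 13.6 CPM in E2 libraries and 9.50 and 7.20 CPM in DMSO libraries. The effects differed by -1.57 ± 0.20 (adjusted p = 0.0462), and the call was lost without E2 replicate 1 (0.356), E2 replicate 2 (0.366), Dex with E2 replicate 1 (0.219), the unnumbered Dex with E2 library (0.0545) or Dex replicate 1 (0.101). PPP1R1B, a protein phosphatase inhibitor best known from neurons of the striatum, had 29.4 and 25.3 CPM in Dex with E2 libraries and 68.1 and 63.5 CPM in Dex libraries, and 9.01 and 10.3 CPM in E2 libraries and 8.13 and 6.81 CPM in DMSO libraries. Its effects differed by -1.64 ± 0.19 (adjusted p = 0.0231), and the call was lost without E2 replicate 1 (0.121), E2 replicate 2 (0.331), the unnumbered Dex with E2 library (0.0545) or Dex replicate 1 (0.0780).

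POTEF, a gene that joins an ankyrin repeat protein to an actin-like sequence, had 1.75 and 1.94 CPM in E2 libraries and 75.9 and 99.8 CPM in DMSO libraries. In the other groups it had 1.95 and 2.11 CPM in Dex with E2 libraries and 1.40 and 0.786 CPM in Dex libraries, and the DMSO libraries stood apart from all the others. The effects differed by 6.43 ± 0.37 (adjusted p = 4.08e-05), and the call held whichever library was left out, with a highest adjusted p of 0.0027. Its transcript shares 3536 bases at 99.3% identity with POTEE and 1354 bases at 92% identity with the actin gene ACTB. Which sequence gave the reads counted for it in DMSO libraries was not tested, and the value is not read as a change of POTEF expression.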

How the results depend on the processing

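No gene called in E2 against DMSO changed sign under any setting; of the comparisons of single genes with other settings 3448 kept their side of the threshold and 894 lost it. Without a filter on low counts the calls were 442 in E2 against DMSO (261 higher, 181 lower), 658 in Dex with E2 against Dex and 32 in the difference of the effects. As a separate setting, DESeq2 with the filter kept called 15 genes in the difference of the effects. Leaving out 1 library at a time gave 58 to 298 calls in E2 against DMSO (48 to 196 higher, 10 to 102 lower, and 50 lower without the unnumbered Dex with E2 library), 31 to 57 functional lists with a called member against 57, 89 to 488 calls in Dex with E2 against Dex (100 without that library), and 1 to 10 calls in the difference of the effects. With RLE size factors 253 genes were called, with a stricter filter 248, with DESeq2 339, with limma-voom 251, without the ribosomal RNA gene RNA45S5 256 and with the 4 libraries of the contrast alone 277, of which 253, 245, 238, 242, 256 and 223 were among the 256. The replicate numbers do not stand for a pairing in the labels, and deviations of same-numbered E2 and DMSO libraries correlated at 0.15, E2 and Dex at 0.05 and Dex and DMSO at 0.24 over 2 numbers; over the 6 numbered libraries a replicate block gave 441 calls (268 higher, 173 lower), and no block gave 185 (51 lower). The cause of these differences was not tested. Of the 169 raised genes, 62 averaged under 5 CPM in DMSO, where counting error is larger; calling was not tested against depth.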

Other observations

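For some lists the calls are set beside the number of members at an unadjusted p under 0.05. Of 29 tested targets of the Hippo pathway, which restrains growth through the coactivators YAP and TAZ, edgeR called 0, with 13 at an unadjusted p under 0.05, 0 called by DESeq2 or limma-voom and a list median of -0.16. Of 49 tested axon guidance genes 1 was raised and 2 were lowered (4 lowered by DESeq2), with 17 at an unadjusted p under 0.05 and a list median of -0.13. Of 62 tested homeobox and lineage factor genes 2 were raised and 3 lowered, with 17 at an unadjusted p under 0.05 and a median of -0.11. Over all 14201 genes tested, 1619 had an unadjusted p under 0.05 and the median was -0.0048. The share called was 1.8% of all genes tested, 6.12% of the axon guidance list and 8.06% of the homeobox and lineage factor list. Of 28 tested genes linked to endometrial receptivity 0 were raised and 1 was lowered (3.57% called), with 1 at an unadjusted p under 0.05 and 12 positive.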
